A study of Rattus norvegicus with 12 samples.

Results

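The genes described are 9 components of interferon-γ (IFN-γ) signalling through the JAK-STAT pathway: the receptor subunits Ifngr1 and Ifngr2, the kinases Jak1 and Jak2, the transcription factors Stat2 and Stat3, and the inhibitors Socs1, Socs3 and Cish. They were chosen by gene symbol, and each symbol matched 1 row of the count table, so they are 9 of its 34034 symbols. All 9 were among the 14324 genes that passed the filter on low counts. INS-1E, an established rat insulinoma line used as a β-cell model and labelled wild type in every sample, was sequenced in 4 groups of 3 libraries labelled as biological replicates. Untreated cells received no cytokine. IL-1βlow cells received IL-1β at 10 pg/ml for 72 h, added fresh each day to the same medium. CYT cells received IL-1β at 100 pg/ml with IFN-γ at 5 ng/ml for 16 h, and IL-1βlow + CYT cells received the low dose first and, after new medium, the same CYT challenge. IFN-γ was thus never given alone, and a response to CYT cannot be assigned to either of its cytokines.

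IFN-γ binds a receptor of IFNGR1, which carries the kinase JAK1, and IFNGR2, which carries JAK2. The kinases phosphorylate STAT proteins, which as dimers bind GAS elements, whereas STAT2 is part of the complex ISGF3, which binds ISRE elements and is best known from type I interferon. STAT3 mainly serves cytokines of the interleukin-6 family. SOCS1, SOCS3 and CISH are transcribed downstream of STATs and dampen the receptors or kinases that induced them. In β-cells, prolactin and growth hormone signal through JAK2 and STAT5.

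Levels are given as CPM, counts relative to the TMM-scaled size of the library, as mean ± SD over 3 libraries. They can be compared between groups for a gene but not between genes, since the counts were not divided by transcript length. Differences are log2 fold changes from edgeR's quasi-likelihood test with their standard error (SE), and adjusted p-values are by Benjamini-Hochberg over all 14324 genes. A gene rose or fell where its adjusted p was under 0.01. It was called where its log2 fold change also exceeded 1, or 0.6 for IL-1βlow against untreated, which are the study's thresholds. Because most of the 9 genes moved by less than that minimum, the counts without it were added after the values had been seen. Intervals are 95% confidence intervals. In bulk RNA, fewer cells that hold a transcript and less of it per cell cannot be told apart.

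Total counts ran from 15812640 to 20246806 per library. Of 20 β-cell markers, 18 passed the filter, but their summed level was 21138 to 23728 CPM in CYT and 29933 to 34902 CPM in IL-1βlow + CYT, against 54656 to 64463 CPM in untreated and 50603 to 60819 CPM in IL-1βlow libraries. Of 15 immune cell markers 4 passed the filter, with sums of 4.02 to 6.68 CPM in the other groups and 9.81 to 11.1 CPM in IL-1βlow + CYT. The pan-leukocyte marker Ptprc had 0 counts in every library. Exocrine and duct markers (2 of 10 passed, Krt7 and Sox9, with Prss1, Cpa1, Amy2a3 and Cftr at 0) summed to 174 to 204 CPM in untreated, 248 to 316 CPM in IL-1βlow, 594 to 795 CPM in CYT and 395 to 505 CPM in IL-1βlow + CYT libraries, nearly all of it Krt7. Other islet cell markers (2 of 9, Gcg and Ghrl) summed to 187 to 368 CPM in untreated, 157 to 260 CPM in IL-1βlow, 25.4 to 64.9 CPM in CYT and 74.5 to 152 CPM in IL-1βlow + CYT libraries. Stromal and endothelial markers (3 of 11) summed to 12.2 to 20.7 CPM in untreated, 11.5 to 18.95 CPM in IL-1βlow, 4.19 to 6.94 CPM in CYT and 9.12 to 12.4 CPM in IL-1βlow + CYT libraries. Rn45s, a ribosomal RNA gene, held 9.36, 9.32 and 7.87% of counts in CYT replicates 1 to 3 and 10.2, 9.96 and 11.1% in IL-1βlow + CYT replicates. It held 6.89 to 10.3% in untreated and 8.33 to 9.85% in IL-1βlow libraries. The part of these shifts in the results below was not tested. The chi-square per degree of freedom between paired libraries within a group was 6.67 to 25.3, above sampling noise. No library was thus a copy of another, but this cannot show that the libraries came from separate cultures. By overall distance, IL-1βlow replicate 3 was nearest to a library of another group.

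With CYT alone, 6 of the 9 genes rose (Ifngr1, Ifngr2, Jak1, Stat2, Stat3 and Socs3), against 25.2% of all genes tested. Stat2 was the only called gene (10% of all genes were called higher), and no gene fell. All 9 fold changes were positive, with a median log2 value of 0.49 against -0.04 over all genes tested. In 8 of the 9 genes every CYT library lay above every untreated library, which held for 34% of all genes. In IL-1βlow + CYT against CYT, 4 genes fell (Ifngr1, Jak1, Stat2 and Socs3; 19.2% of all genes fell) and Ifngr2 alone rose (17.1% of all genes rose). Stat3 differed by -0.02 from its CYT level, and Jak2, Socs1 and Cish had negative fold changes that did not pass.

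**Figure D1:**
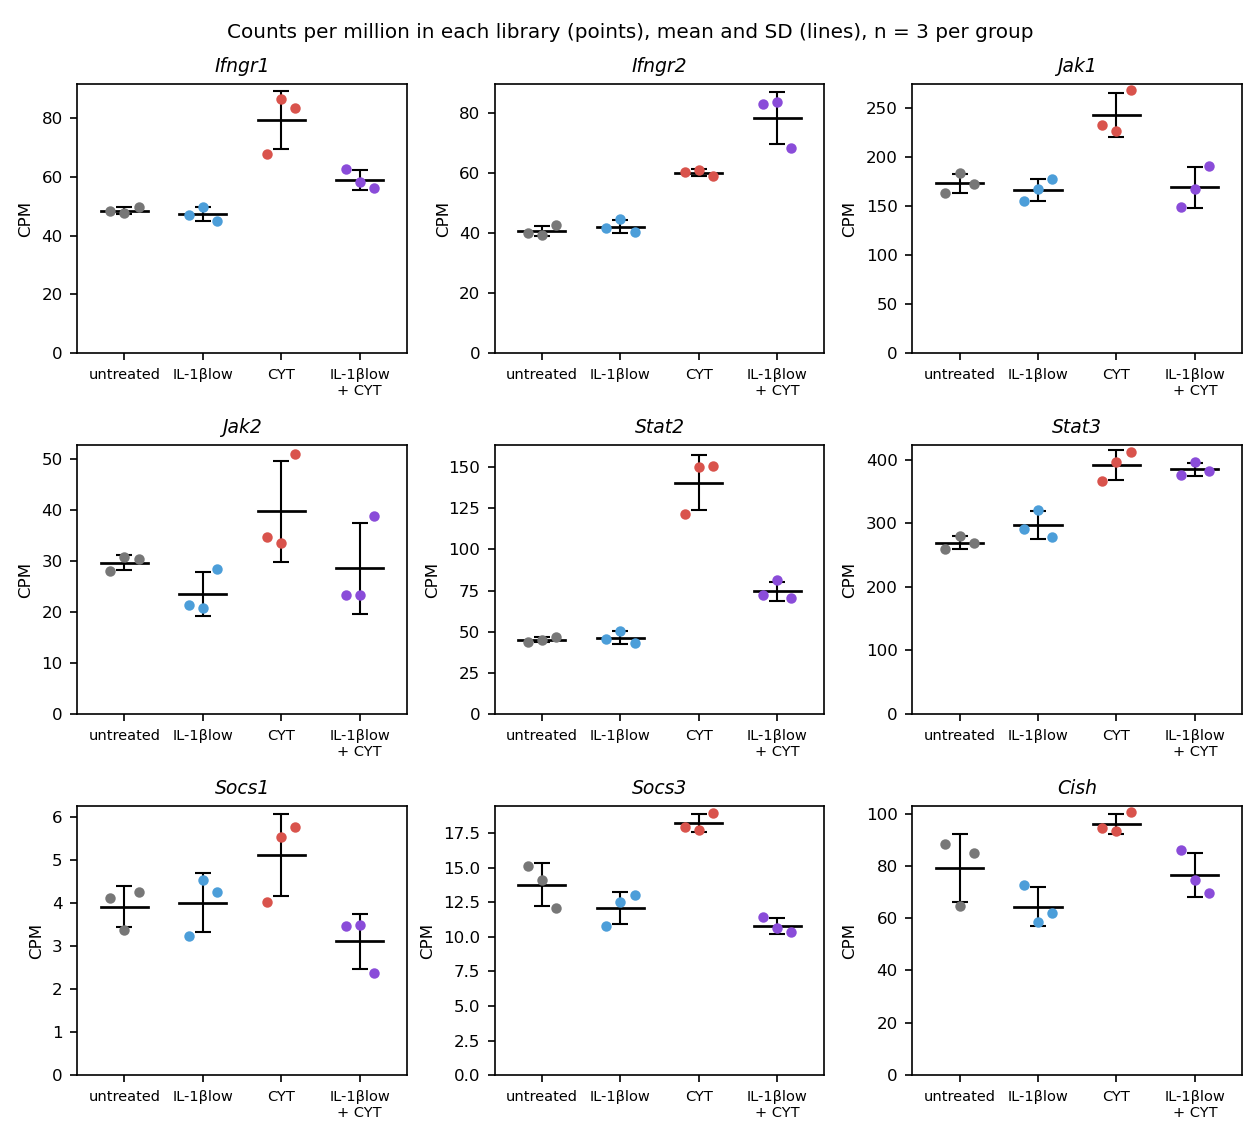
Level of each of the 9 genes in CPM (y axis, from 0) in every library of the 4 groups (points, replicates 1 to 3 from left to right), with the group mean and SD (black lines, n = 3). All CYT points lie above the other groups for Ifngr1, Jak1, Stat2, Socs3 and Cish, whereas for Ifngr2 the IL-1βlow + CYT points, 68.5 to 83.8 CPM, lie above all others.

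IL-1βlow alone addressed whether low-dose preconditioning itself shifts these genes before the challenge. None of the 9 was called (0.433% of all genes were, in either direction) and none had an adjusted p under 0.01 (0.503% of all genes). DESeq2 and edgeR's exactTest also called 0. At an unadjusted p under 0.05 (13.8% of all genes) there was 1, Cish, at -0.30 (SE 0.12, adjusted p = 0.306 by edgeR), and log2 fold changes spanned -0.34 for Jak2 to 0.14 for Stat3. The intervals bound how far the receptor could have moved: -0.24 to 0.17 for Ifngr1 and -0.15 to 0.25 for Ifngr2. Those of Jak2 (-0.78 to 0.11) and Socs1 (-0.44 to 0.50) were wider.

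The receptor subunits moved in opposite directions in IL-1βlow + CYT against CYT, whereas with IL-1βlow alone neither passed. Ifngr1, which binds IFN-γ, was at 48.2, 47.6 and 49.7 CPM in untreated replicates 1 to 3 and at 47.1, 49.6 and 45.0 CPM in IL-1βlow replicates. With CYT it was at 67.9, 86.4 and 83.4 CPM, and with IL-1βlow + CYT at 62.7, 58.3 and 56.1 CPM. All CYT libraries lay above all others, and the IL-1βlow + CYT libraries lay between CYT and untreated. Ifngr1 thus rose with CYT by 0.71 (SE 0.10, adjusted p = 1.85e-05, 1.63-fold) and fell by 0.42 (SE 0.09, adjusted p = 0.00195) in IL-1βlow + CYT against CYT. Against IL-1βlow cells the challenge changed it by 0.32 (SE 0.10, adjusted p = 0.0397), which did not pass. The fall passed 0.01 no longer without CYT replicate 2 (-0.36, adjusted p = 0.012) or in a fit of the 2 groups alone (adjusted p = 0.0143).

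Ifngr2, the subunit that completes the signalling receptor, was at 40.2, 39.3 and 42.6 CPM in untreated and at 41.5, 44.5 and 40.2 CPM in IL-1βlow libraries. CYT libraries held 60.2, 61.1 and 59.1 CPM and IL-1βlow + CYT libraries 83.1, 83.8 and 68.5 CPM. The 2 groups without CYT overlapped, CYT lay above them, and IL-1βlow + CYT lay above CYT without overlap. The rise was 0.56 (SE 0.09, adjusted p = 9.39e-05, 1.48-fold) for CYT against untreated and 0.90 (SE 0.09, adjusted p = 5.8e-06, 1.86-fold) for IL-1βlow + CYT against IL-1βlow. The step from CYT to IL-1βlow + CYT was 0.38 (SE 0.09, adjusted p = 0.00264), opposite in sign to that of the other 8 genes. It kept its sign but passed 0.01 no longer without CYT replicate 1 or 3 or without IL-1βlow + CYT replicate 1 or 2 (adjusted p from 0.013 to 0.0226), nor in a fit of the 2 groups alone (adjusted p = 0.0187) or with no filter on low counts (adjusted p = 0.0107). Ifngr2 overlaps a long non-coding RNA gene in the RefSeq annotation of GRCr8, a later build than the mRatBN7.2 of the counts, and the strand setting of the counting is not given in the sources used here.

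The ratio of Ifngr2 to Ifngr1 counts, formed after the values had been seen, puts the subunits on a scale that sequencing depth does not touch. It was 0.834, 0.826 and 0.856 in untreated, 0.881, 0.897 and 0.894 in IL-1βlow, 0.886, 0.707 and 0.708 in CYT and 1.32, 1.44 and 1.22 in IL-1βlow + CYT libraries. All 3 IL-1βlow + CYT libraries lay above the other 9. The mean was 1.33 ± 0.109 (SD, n = 3) there and 0.767 ± 0.103 (SD, n = 3) in CYT, a 1.73-fold difference with an exact two-sided permutation p of 0.1, the smallest that 3 libraries against 3 allow. Of 5 comparisons of the ratio 4 gave that p (0.125 after Benjamini-Hochberg adjustment), IL-1βlow against untreated at 1.06-fold included, so none is set apart by it. The ratio shows unequal change of the subunits and not which of them changed, and it is not a ratio of molecules because the transcripts differ in length.

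**Figure D2:**
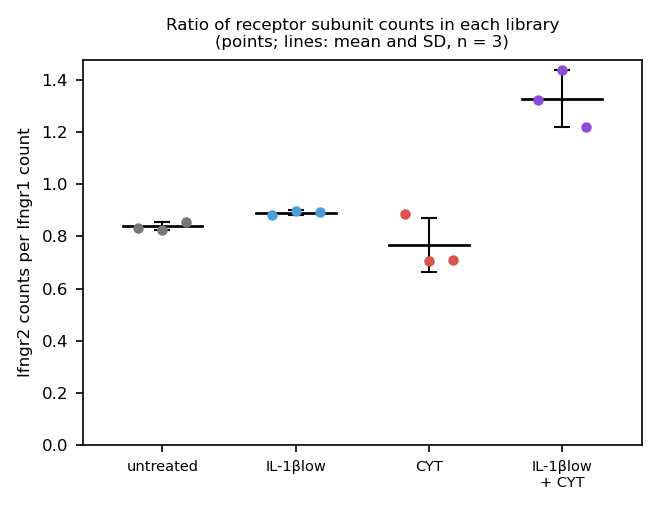
Ifngr2 counts per Ifngr1 count (y axis, from 0) in each library (points) of the 4 groups, with the mean and SD (black lines, n = 3). The IL-1βlow + CYT libraries, at 1.22 to 1.44, sit above all other libraries, of which the highest is at 0.897.

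Promoter sequences were read from RefSeq windows (build GRCr8, 250 bases before to 50 bases after a gene's start), which held 8 of the 9 genes and not Jak1. They were searched on both strands for GAS (TTCNNNGAA, which reads the same on both strands), for an ISRE-type repeat (GAAANNGAA) and for the κB consensus, the site of NF-κB, the transcription factor downstream of IL-1β. Of 33469 such windows, 8.87% held GAS, 9.71% the ISRE-type repeat and 4.18% the κB consensus. The windows of Ifngr1, Jak2, Stat2 and Stat3 held none of these letters. That of Socs3, which starts within the annotated gene and is not printed, held a κB match from -161 to -152 on the minus strand. Only bases before the start are printed, in lower case with matches in capitals, and a match is a description of letters and not a binding site. Ifngr2 is shown because it alone of the 9 genes rose in IL-1βlow + CYT against CYT. It has a κB match from -72 to -63, counted from the start, on the minus strand (chr11:44265543-44265702, plus strand).
Ifngr2: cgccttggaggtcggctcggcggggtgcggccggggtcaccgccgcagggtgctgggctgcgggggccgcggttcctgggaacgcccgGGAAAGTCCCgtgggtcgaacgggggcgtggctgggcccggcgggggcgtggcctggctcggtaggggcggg

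Jak1, which is bound to IFNGR1 and to receptors of the interleukin-6 family, was at 163, 183 and 172 CPM in untreated and 155, 167 and 177 CPM in IL-1βlow libraries. It was at 233, 226 and 268 CPM with CYT and at 149, 167 and 191 CPM with IL-1βlow + CYT. CYT libraries lay above all 9 others, which overlapped one another. Jak1 rose with CYT by 0.49 (SE 0.10, adjusted p = 0.000704, 1.40-fold) and fell by 0.52 (SE 0.10, adjusted p = 0.000628) in IL-1βlow + CYT against CYT. Between IL-1βlow + CYT and IL-1βlow the difference was 0.02, with an interval from -0.19 to 0.24. In GRCr8, Jak1 overlaps the gene Raver2.

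Jak2, the kinase on IFNGR2, had the largest SD relative to its mean among the 9 genes in each cytokine group, at 18.1% in IL-1βlow, 24.7% in CYT and 31.3% in IL-1βlow + CYT. It was at 28.0, 30.7 and 30.3 CPM in untreated, 21.3, 20.8 and 28.4 CPM in IL-1βlow, 34.6, 33.4 and 51.0 CPM in CYT and 23.3, 23.4 and 38.8 CPM in IL-1βlow + CYT libraries. Replicate 3 was the highest library in each of the 3 cytokine groups but not in untreated cells. CYT lay above untreated without overlap, while IL-1βlow + CYT overlapped every other group. Neither 0.42 (SE 0.20, adjusted p = 0.0854) for CYT nor -0.48 (SE 0.20, adjusted p = 0.0631) for IL-1βlow + CYT against CYT passed. With no filter on low counts both passed (adjusted p = 0.000938 and 0.000706). With replicate numbers as a block, IL-1βlow + CYT against CYT gave -0.49 and passed (adjusted p = 0.0031), and without IL-1βlow + CYT replicate 3 it gave -0.76 (adjusted p = 0.00234). Without CYT replicate 3 the fold changes shrank to 0.23 (adjusted p = 0.339) for CYT and -0.29 (adjusted p = 0.26) for IL-1βlow + CYT against CYT.

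**Figure D3:**
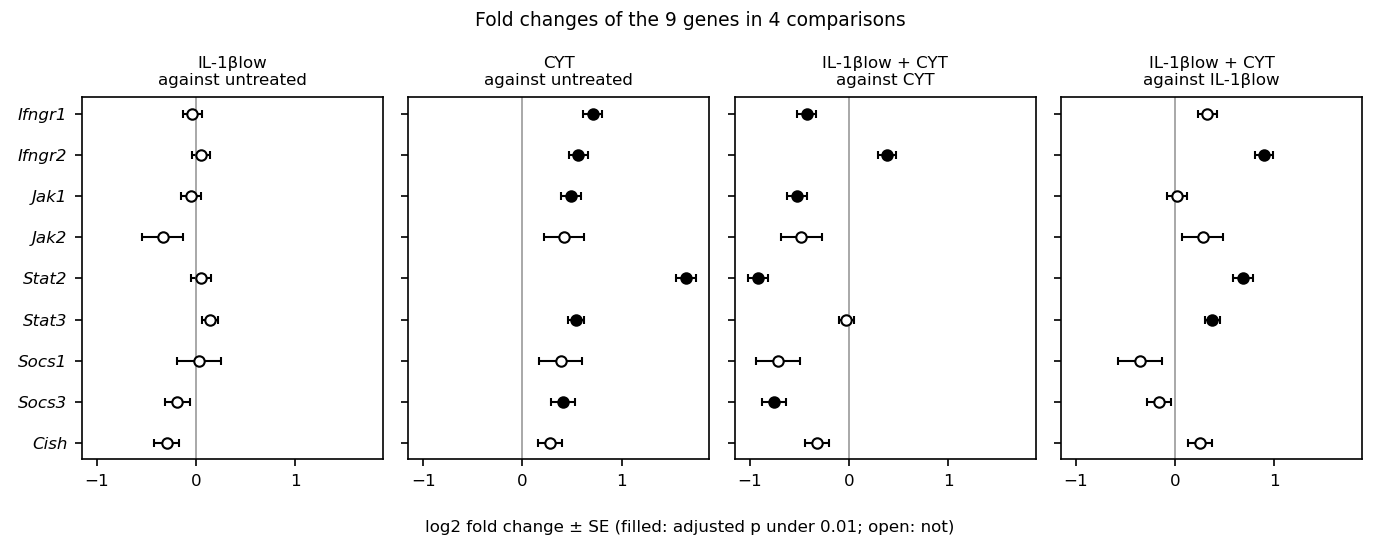
Log2 fold change (x axis) with its SE (bars) of each of the 9 genes in 4 comparisons from edgeR's quasi-likelihood fit of all 12 libraries, with filled points where the adjusted p was under 0.01. The CYT panel has 6 filled points, all right of 0, and the IL-1βlow + CYT against CYT panel has 4 filled points left of 0 and that of Ifngr2 right of it.

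Stat2, a subunit of ISGF3, changed most among the 9 genes. Untreated libraries held 43.6, 44.8 and 46.6 CPM and IL-1βlow libraries 45.7, 50.4 and 43.1 CPM. CYT libraries held 121, 150 and 151 CPM, whereas IL-1βlow + CYT libraries held 72.2, 81.1 and 70.3 CPM. The CYT libraries stood above all others, the IL-1βlow + CYT libraries stood between, and neither overlapped the 2 groups without CYT. CYT raised it by 1.64 (SE 0.10, adjusted p = 6.17e-09, 3.13-fold), and the challenge after IL-1βlow raised it by 0.68 over IL-1βlow (SE 0.10, adjusted p = 0.000233, 1.61-fold). In IL-1βlow + CYT against CYT it fell by 0.92 (SE 0.10, adjusted p = 4.38e-06), just inside the fold minimum of 1. The difference between both CYT responses, tested as the interaction, was -0.96 (SE 0.14, adjusted p = 0.000169).

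The letters before the Stat2 start are shown because this gene carried the largest change. The stretch from -250 to -91 (chr7:1286840-1286999, plus strand) has no capitals, since neither GAS, the ISRE-type repeat nor the κB consensus was found in it.
Stat2: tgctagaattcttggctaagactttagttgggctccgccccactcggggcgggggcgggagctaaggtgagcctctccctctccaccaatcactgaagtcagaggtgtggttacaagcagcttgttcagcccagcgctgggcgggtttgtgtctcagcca

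Among all 14324 genes, the 3 whose log2 CPM followed Stat2 most closely over the 12 libraries, each gene taken relative to its own untreated mean, were Dlg4, Rab11fip4 and Tnks1bp1. Their root mean square difference from Stat2 was 0.10, 0.11 and 0.11 log2 units, against a median of 0.97 over all genes. Dlg4, which encodes a scaffold protein of synapses, was 1.78 above untreated in CYT and 0.65 above it in IL-1βlow + CYT by edgeR's log2 fold changes. Rab11fip4, an effector of the small GTPase RAB11, was at 1.65 and 0.77, and Tnks1bp1, which binds tankyrase, at 1.58 and 0.84.

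Stat3, the main transducer of interleukin-6 family cytokines, rose with CYT in both settings. Its libraries held 260, 281 and 269 CPM in untreated, 292, 321 and 279 CPM in IL-1βlow, 366, 396 and 412 CPM in CYT and 376, 397 and 382 CPM in IL-1βlow + CYT cells. Both groups with CYT lay above both groups without it and overlapped each other. The rise was 0.54 (SE 0.08, adjusted p = 3.71e-05) with CYT and 0.37 (SE 0.08, adjusted p = 0.00426) for IL-1βlow + CYT against IL-1βlow. IL-1βlow + CYT and CYT differed by -0.02 (adjusted p = 0.813), with an interval from -0.19 to 0.14. The rise over IL-1βlow passed 0.01 no longer without replicate 1 or 3 of IL-1βlow or replicate 1 or 2 of IL-1βlow + CYT (adjusted p from 0.0145 to 0.0334), nor in a fit of the 2 groups alone (adjusted p = 0.0217).

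Of the inhibitors, Socs3 rose with CYT and fell in IL-1βlow + CYT against CYT, while Socs1 and Cish passed neither test. Socs1, which blocks the kinase activity of JAKs, had only 40 to 113 counts per library. It was at 4.12, 3.37 and 4.26 CPM in untreated, 3.23, 4.54 and 4.26 CPM in IL-1βlow, 4.02, 5.54 and 5.78 CPM in CYT and 3.47, 3.48 and 2.38 CPM in IL-1βlow + CYT libraries. CYT overlapped untreated, whereas all IL-1βlow + CYT libraries lay below all CYT libraries. The log2 fold changes were 0.38 (SE 0.21, adjusted p = 0.134) for CYT and -0.71 (SE 0.22, adjusted p = 0.0139) for IL-1βlow + CYT against CYT. Neither passed, though the latter had an adjusted p of 0.0098 by DESeq2, 0.00547 by exactTest, 0.00702 with no filter on low counts, 0.00988 with at least 10 counts required in every library and 0.00516 without CYT replicate 1. A long non-coding RNA gene overlaps Socs1 in GRCr8.

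Socs3, which binds gp130 and JAKs and limits STAT3 signalling, was at 15.1, 14.1 and 12.1 CPM in untreated and 10.8, 12.5 and 13.0 CPM in IL-1βlow libraries. It was at 17.98, 17.8 and 19.0 CPM with CYT and at 11.4, 10.6 and 10.3 CPM with IL-1βlow + CYT. The CYT libraries were the highest, and the IL-1βlow + CYT libraries lay below every untreated library. Socs3 rose with CYT by 0.40 (SE 0.12, adjusted p = 0.00921, 1.32-fold) and fell by 0.76 (SE 0.12, adjusted p = 0.000149) in IL-1βlow + CYT against CYT. Against untreated cells IL-1βlow + CYT gave -0.35 (SE 0.12, adjusted p = 0.0546). The rise with CYT passed 0.01 no longer without untreated replicate 2 or 3 or without any 1 of the CYT libraries, with adjusted p-values from 0.011 to 0.0506.

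Cish, a STAT5 target that dampens prolactin, growth hormone and cytokine receptors, was at 88.2, 64.5 and 84.9 CPM in untreated and 72.8, 58.5 and 61.9 CPM in IL-1βlow libraries. It was at 94.4, 93.2 and 101 CPM with CYT and at 85.9, 74.5 and 69.5 CPM with IL-1βlow + CYT. CYT libraries lay above all others, among which the groups overlapped. The log2 fold changes of 0.28 (SE 0.12, adjusted p = 0.0586) with CYT and -0.33 (SE 0.12, adjusted p = 0.0366) for IL-1βlow + CYT against CYT did not pass. With no filter on low counts they were 0.35 and -0.36 and both passed (adjusted p = 0.00629 and 0.00696), whereas without untreated replicate 2 the first was 0.17 (adjusted p = 0.213) and without IL-1βlow + CYT replicate 3 the second was -0.26 (adjusted p = 0.106). Blocked by replicate number, the latter was -0.33 and passed (adjusted p = 0.00675).

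The promoters of Socs1 and Cish, shown because GAS elements are the letters that STAT dimers bind, differed in what they held. Socs1 (-250 to -91, chr10:5389324-5389483, plus strand) has a GAS match from -196 to -188 and ISRE-type repeats from -239 to -231, -107 to -99 and -101 to -93, of which the last 2 overlap each other. Cish (-250 to -91, chr8:116850719-116850878, plus strand) has 4 GAS matches, starting at -241, -230, -136 and -119. At least 4 GAS matches were found in 2 of the 33469 windows, that of Cish included.
Socs1: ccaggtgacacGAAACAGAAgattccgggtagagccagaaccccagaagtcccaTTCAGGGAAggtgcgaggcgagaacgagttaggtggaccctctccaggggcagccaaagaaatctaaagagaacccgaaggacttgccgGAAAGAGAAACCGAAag
Cish: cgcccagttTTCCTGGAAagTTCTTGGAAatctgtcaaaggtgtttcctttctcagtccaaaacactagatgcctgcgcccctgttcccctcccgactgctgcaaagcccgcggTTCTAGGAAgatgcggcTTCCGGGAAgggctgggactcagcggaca

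Comparisons of the preconditioned, challenged cells with either unchallenged group gave fewer changes. In IL-1βlow + CYT against IL-1βlow, Ifngr2, Stat2 and Stat3 rose (5.57% of all genes did) and none was called (3.88% of all genes were, in either direction). The same 3 genes rose in IL-1βlow + CYT against untreated (8.24% of all genes did), by 0.95 (SE 0.09, adjusted p = 2.26e-06) for Ifngr2, 0.73 (SE 0.10, adjusted p = 8.37e-05) for Stat2 and 0.51 (SE 0.08, adjusted p = 0.000209) for Stat3. None was called there either (5.99% of all genes were), although Ifngr2 was close to the minimum and passed it at 1.04 without IL-1βlow + CYT replicate 3. These comparisons share the IL-1βlow + CYT libraries and are not independent. By DESeq2 and exactTest 0 of the 9 genes were called in them as well, and 4 and 5 had an unadjusted p under 0.05 (23.6% and 34% of all genes).

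In IL-1βlow + CYT against CYT 0 of the 9 genes were called by edgeR, DESeq2 or exactTest (12.5% of all genes were called by edgeR), and 8 had an unadjusted p under 0.05 (56.7% of all genes). The median log2 fold change of the 9 genes was -0.48, against 0.02 over all genes tested. All libraries of IL-1βlow + CYT lay below all CYT libraries in 6 genes, which held for 27.6% of all genes tested. Whether the CYT response itself differed with preconditioning was tested by the interaction, which in edgeR's fit was below 0 and passed for Stat2 alone (12.5% of all genes). No gene reached the fold minimum there (10.7% of all genes were called), 6 had an unadjusted p under 0.05 (46.7% of all genes), and DESeq2 called 0. Jak1 at -0.47 (SE 0.14, adjusted p = 0.0186), Socs3 at -0.57 (SE 0.17, adjusted p = 0.0188) and Ifngr1 at -0.39 (SE 0.14, adjusted p = 0.0366) did not pass. By DESeq2, Jak1 (adjusted p = 0.00412) and Socs3 (adjusted p = 0.00873) passed as well, and in edgeR Jak1 passed with no filter on low counts (adjusted p = 0.00498) and without IL-1βlow + CYT replicate 3 (adjusted p = 0.00398) and Ifngr1 without CYT replicate 1 (adjusted p = 0.0037). Blocked by replicate number, Jak1 gave -0.47 and passed (adjusted p = 0.00186), though same-numbered untreated libraries did not all correlate above 0.1 with the others. Ifngr2 had the only positive value, 0.33 (SE 0.13, adjusted p = 0.0538), which passed without IL-1βlow + CYT replicate 3 (adjusted p = 0.00948).

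The other genes of the pathway were taken from 7 lists with 151 genes, of which 100 could be tested. CYT called 48 of them higher and 8 lower (over all genes tested, 10% and 11.6%). Some of the 48 passed the filter on low counts only through libraries with CYT, as stated below for genes named. IL-1βlow + CYT against CYT called 3 higher and 35 lower (6.54% and 5.92% of all genes). Against IL-1βlow, IL-1βlow + CYT called 28 higher and 2 lower (2.92% of all genes were called higher, and 3.88% in either direction). IL-1βlow alone called 0 of the 100. Below the fold minimum of 0.6, the interferon-γ target B2m rose by 0.59 (SE 0.09, adjusted p = 0.00598). Median log2 fold changes over the 100 genes were 0.86 with CYT and -0.67 for IL-1βlow + CYT against CYT.

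The kinases and STATs outside the 9 genes were 6 tested genes, with Stat4 at no more than 1 count. Tyk2, the kinase of type I interferon receptors, rose with CYT by 0.72 (adjusted p = 2.44e-05) and fell by 0.56 (adjusted p = 0.000356) in IL-1βlow + CYT against CYT. Jak3, the kinase of the common γ-chain receptors, rose with CYT by 1.07 (adjusted p = 1.38e-05) and by 0.73 (adjusted p = 0.000379) in the latter comparison. With IL-1βlow alone Jak3 was already at 0.57 (SE 0.14, adjusted p = 0.0715), which did not pass. Its interaction was 0.16 (SE 0.19, adjusted p = 0.545). Stat5a, Stat5b and Stat6 had fold changes between -0.04 and 0.23 with CYT, and none passed.

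Of the other SOCS genes, Socs2, a growth hormone and STAT5 target, was called lower with CYT. It was at 168 ± 7.06 CPM in untreated, 128 ± 13.6 CPM in IL-1βlow, 66.6 ± 4.64 CPM in CYT and 107 ± 7.81 CPM in IL-1βlow + CYT cells (SD, n = 3). It fell by 1.34 (SE 0.09, adjusted p = 2.32e-08) and was 0.68 higher (SE 0.09, adjusted p = 3.91e-05) in IL-1βlow + CYT than in CYT cells, opposite in sign to Socs3 in both comparisons. Socs7, whose protein binds STAT3 and STAT5, rose by 0.54 (adjusted p = 1.25e-05) and fell by 0.54 (adjusted p = 2.32e-05), and Socs5 and Socs6 fell by 0.56 and 0.47 in the latter comparison (adjusted p = 0.003 and 0.00432). Socs4 passed in neither. Of 11 other negative regulators, CYT called 2 higher, a share near the 10% over all genes. These were Usp18, which blocks type I interferon receptor signalling, at 2.97 (SE 0.23, adjusted p = 6.39e-08), and Sh2b3, an adaptor that restrains JAK2, at 1.20 (SE 0.12, adjusted p = 1.13e-06). Both were called lower in IL-1βlow + CYT against CYT (5.92% of all genes), by -2.31 and -1.65 (adjusted p = 1.34e-06 and 1.81e-07).

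Of 31 tested interferon-γ targets, CYT called 27 higher (10% of all genes) and none lower, with a median log2 fold change of 3.59, or 3.33 with the 4 genes that had at most 3 counts in every untreated library set at their lower bound. Gbp1, Gbp4, Mx1 and Rsad2 exceeded a CPM of 1 only in libraries with CYT and passed the filter through them. Their calls as higher were thus partly set by the filter, and targets not named here may share this. IL-1βlow + CYT against CYT called 19 lower (5.92% of all genes) and none higher (median -1.10), and against IL-1βlow 20 were called higher (2.92% of all genes; median 2.04). In IL-1βlow + CYT against CYT, 17.1% of all genes rose and 6.54% were called higher. A few rises below the fold minimum thus do not set the targets apart from all genes. There were 3 such targets, named after their values had been seen. These were Irgm, an immunity-related GTPase, at 0.81 (adjusted p = 2.79e-05), Parp14, an ADP-ribosyltransferase, at 0.74 (adjusted p = 7.42e-05) and Cd274, which encodes PD-L1, at 0.59 (adjusted p = 0.00047). Mx1 and Mx2, antiviral GTPases, rose with CYT by 8.38 (SE 0.54, adjusted p = 9.43e-09) and 8.33 (SE 0.47, adjusted p = 2.5e-09) and stood at -3.21 and -3.72 in IL-1βlow + CYT against CYT (adjusted p = 4.44e-06 and 7.85e-07). Rsad2, the antiviral enzyme viperin, rose by 8.02 (SE 0.51, adjusted p = 7.72e-09) and fell by 5.63 in the latter comparison (SE 0.40, adjusted p = 1.25e-07). Untreated libraries held only 1 to 8 counts of Mx1, 11 to 19 of Mx2 and 6 of Rsad2, so the size of these rises is uncertain. CYT libraries spread from 55.9 to 152 CPM for Mx1, 149 to 435 CPM for Mx2 and 44.4 to 152 CPM for Rsad2. The guanylate-binding protein genes Gbp1 and Gbp4 had at most 1 count in an untreated library and were at least 18.3-fold and at least 10.1-fold higher with CYT, computed against 3 counts per library.

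**Figure D4:**
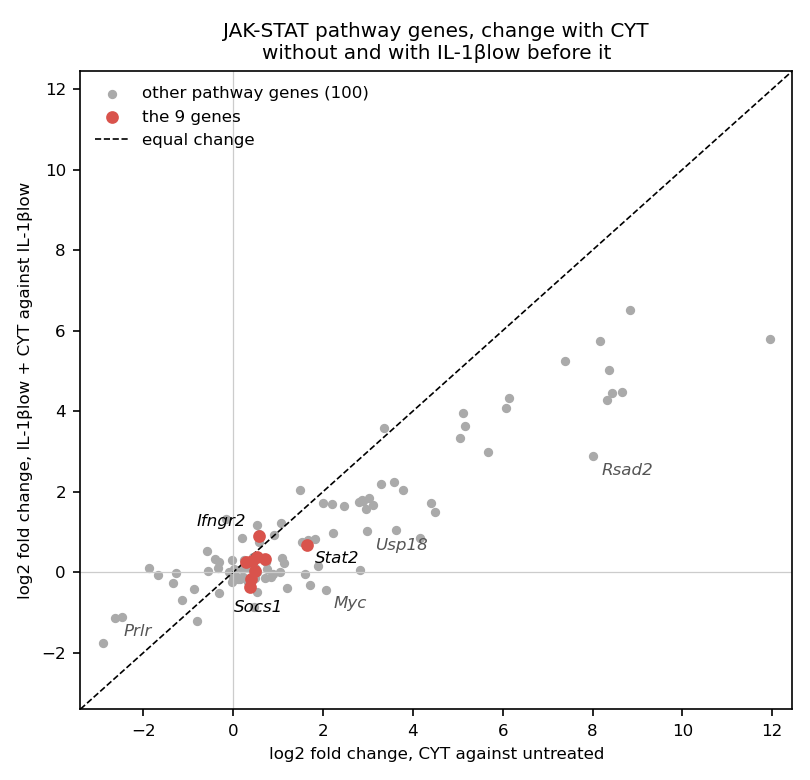
Log2 fold change with CYT in cells without preconditioning (x axis, against untreated) and with it (y axis, IL-1βlow + CYT against IL-1βlow) for the 9 genes (red) and 100 other pathway genes (grey), from edgeR, with no library shared between the axes. Of the 100 other genes 72 lie below the dashed line of equal change, and Ifngr2 lies above it. The median interaction was -0.60 over these 100 genes, against 0.04 over all genes tested, of which at least as many thus lie above the line as below it. Values over 6 rest on genes with few or no counts in the groups without CYT and depend on the prior count of the fit. Lower y values do so too where IL-1βlow libraries had 0 counts, as for Il9r at 4.46 and Csf2 at 4.48. The interactions of Il9r, Csf2 and Gbp1 had SE of 7326, 6867 and 5667 and are not determined, though these genes enter the 72 and the median.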

How the data were processed

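RNA-seq of 12 INS-1E libraries was used. The authors used FastQC for read quality, rfastp for trimming, Rsubread for alignment to the rat build mRatBN7.2 and featureCounts for counting, and deposited whole-number counts per gene with no normalization. The strand setting is not given in the sources used here. Columns were matched to groups by the library names in the labels, and 0 were unused. Total counts per library were 15812640 to 20246806. Reads carry no molecular identifiers, so depth bounds counting error only.

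In R 4.3.3, the filter kept the 14324 of 34034 genes that exceeded a CPM of 1 in 2 or more libraries (9813 had no count). They were scaled by TMM and fitted with edgeR 4.0.16 (glmQLFit, glmQLFTest), all 12 libraries in 1 model of 4 group means with 8 residual degrees of freedom (common biological coefficient of variation 0.123). Contrasts gave 5 pairwise comparisons and the interaction. The study's own test, exactTest, was an alternative, as were DESeq2 1.42.0, RLE size factors, library totals alone, other filters, the 2 groups compared alone, a replicate block, an adjusted p under 0.05, and leaving out each library. SE were taken from the fold change and the F statistic. Patterns were compared on log2 CPM with a prior count of 2. Where no library of a group exceeded 3 counts, the fold was computed against 3 counts. The scripts were tested on simulated counts.

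Replicate numbers come from the labels, which do not say that equal numbers were grown together. Deviations from the group mean correlated at 0.116, 0.475 and 0.453 between same-numbered CYT and IL-1βlow + CYT libraries, all above 0.1, and at 0.179, 0.469 and 0.520 between IL-1βlow and IL-1βlow + CYT libraries, so the blocked value is given beside a result of these comparisons where it changes it. Untreated libraries did not meet this.

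The 9 genes and the lists were chosen with earlier results of these data known. Named are all 9 genes, every other kinase, STAT and SOCS gene, in each further pathway list the 3 called genes with the largest change in CYT against untreated and in IL-1βlow + CYT against CYT, and the 3 genes most like each called gene of the 9. Some genes that meet this rule are not reported here. Gene overlaps and promoters came from RefSeq (GRCr8), in which all 9 symbols matched; no gene positions of mRatBN7.2 were used here.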

Additional observations from a re-analysis of the deposited data

Results flagged for a closer look

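The response of Stat2 to CYT differed between cells with and without IL-1βlow by the interaction term of edgeR's quasi-likelihood fit, at -0.96 on the log2 scale (SE 0.14, adjusted p = 0.000169). Stat2 was higher in all 3 CYT than in all 3 untreated libraries and higher in all 3 IL-1βlow + CYT than in all 3 IL-1βlow libraries, by 1.64 and 0.68. The interaction kept its sign in each alternative and without any 1 of the 12 libraries. The part of the lower summed β-cell markers in CYT cells (21138 to 23728 CPM) than in IL-1βlow + CYT cells (29933 to 34902 CPM) in this difference was not tested.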

How the results depend on the processing

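Stat2 was the 1 called gene of the 9 with CYT under every alternative fit and without any library, and the other pathway genes called with CYT numbered 50 to 57 as libraries were left out. Of the other pathway genes with IL-1βlow alone, where 0 were called, RLE size factors, library totals alone and exactTest called 1, DESeq2 and no filter on low counts called 2, an adjusted p under 0.05 without a fold minimum called 1, and leaving out a library called 0 to 1. With that last threshold the 9 genes called numbered 6 for CYT (62.3% of all genes), 7 for IL-1βlow + CYT against CYT (50.7%), 4 against IL-1βlow (13%), 4 against untreated (21.8%) and 4 for the interaction (37.3%), and the other pathway genes called in IL-1βlow + CYT against CYT numbered 74 in place of 38. For the interaction, no filter on low counts called 1 of the 9 genes and gave 2 with an adjusted p under 0.01, and DESeq2 gave 3, in place of 1. The fit of the 2 groups alone gave 3 genes with an adjusted p under 0.01 in IL-1βlow + CYT against CYT, in place of 5; it has fewer samples. For the other shifts the cause was not tested.

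Leaving out each library in turn called 0 to 1 of the 9 genes in IL-1βlow + CYT against CYT (Stat2 at -1.05 without CYT replicate 1), 0 to 1 against untreated and 0 to 1 for the interaction, and left 4 to 6, 3 and 1 to 3 with an adjusted p under 0.01. The corresponding range was 2 to 3 against IL-1βlow and 5 to 6 for CYT, and 29 to 45 other pathway genes were called in IL-1βlow + CYT against CYT. Signs turned only for log2 fold changes that did not pass: Jak1 in IL-1βlow + CYT against untreated (-0.13 to 0.038, and 0.0046 with no filter) and against IL-1βlow (-0.0758 to 0.0957), Cish against untreated (-0.19 to 0.0175) and in the interaction (-0.15 to 0.0642), Socs1 (-0.0760 to 0.16) and Stat2 (-0.0225 to 0.0952) in IL-1βlow against untreated, and Jak2 in the interaction (-0.43 to 0.0564), against untreated (-0.34 to 0.0687) and against IL-1βlow (-0.0085 to 0.43). Scaling moved the median of all genes by less than 0.1.

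Same-numbered libraries correlated above 0.1 in 13 of 18 pairs (-0.188 to 0.52), and 9 of 12 libraries correlated best with their own number. With the replicate number as a block, 7 of the 9 genes in place of 5 had an adjusted p under 0.01 in IL-1βlow + CYT against CYT (all 5 kept, with Jak2 and Cish added), and 2 in place of 1 in the interaction (Jak1 added); it changed no other call of the 9 genes. Depth limits Socs1 most, with 40 to 113 counts per library.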

Other observations

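Of 20 tested receptor genes outside the IFN-γ receptor, CYT called 3 higher and 3 lower, shares near those over all genes tested (10% higher and 11.6% lower). Among them was Prlr, the prolactin receptor that signals through JAK2 and STAT5 in β-cells. Prlr was at 94.99 ± 14.7 CPM in untreated, 66.3 ± 20.2 CPM in IL-1βlow, 15.4 ± 1.13 CPM in CYT and 30.4 ± 11.2 CPM in IL-1βlow + CYT cells (SD, n = 3). It fell by 2.62 (SE 0.25, adjusted p = 5.18e-07 by edgeR) with CYT and was 0.97 higher (SE 0.24, adjusted p = 0.0044) in IL-1βlow + CYT than in CYT cells. Il20ra, a subunit of the interleukin-20 receptor, fell by 2.48 (SE 0.47, adjusted p = 0.000372), though it had only 14 to 24 counts in untreated and 2 to 5 in CYT libraries. Il4r, the interleukin-4 receptor chain, rose by 1.66 (SE 0.15, adjusted p = 4.04e-07) and fell by 1.06 (SE 0.15, adjusted p = 4.51e-05) in IL-1βlow + CYT against CYT. Il9r had 0 counts in untreated libraries and was at least 13.8-fold higher with CYT, then 3.97 lower on the log2 scale in IL-1βlow + CYT (SE 0.47, adjusted p = 5.89e-05). Il9r passed the filter only through the CYT libraries. Il6r, the interleukin-6 receptor, rose by 0.53 (SE 0.11, adjusted p = 0.0006) and fell by 1.00 (SE 0.11, adjusted p = 4.38e-06).

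Of 10 tested ligand genes, CYT called 5 higher and 2 lower (10% and 11.6% of all genes). Ifng and Il6 had 0 counts in every library. Lif, a cytokine of the interleukin-6 family that activates STAT3, was at 2.21 ± 0.0963 CPM in untreated, 2.84 ± 0.226 CPM in IL-1βlow, 73.6 ± 5.47 CPM in CYT and 28.8 ± 2.33 CPM in IL-1βlow + CYT cells (SD, n = 3), so it rose by 5.06 (SE 0.13, adjusted p = 1.32e-12) and fell by 1.35 (SE 0.10, adjusted p = 1.53e-07). Il23a, a subunit of interleukin-23, rose by 4.48 (SE 0.32, adjusted p = 2.67e-08) and fell by 3.24 (SE 0.28, adjusted p = 7.07e-07). Csf2, which encodes GM-CSF, passed the filter only through the CYT libraries and was at least 16.1-fold higher with CYT.

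Of 17 tested STAT3 and STAT5 targets, 9 were called higher and 2 lower with CYT (10% and 11.6% of all genes), and 1 higher and 8 lower in IL-1βlow + CYT against CYT (6.54% and 5.92% of all genes), while Stat3 itself differed by -0.02 between those groups (interval -0.19 to 0.14). Pim1, a survival kinase, was at 5.38 ± 0.243 CPM in untreated, 7.08 ± 0.180 CPM in IL-1βlow, 38.1 ± 7.51 CPM in CYT and 7.37 ± 0.785 CPM in IL-1βlow + CYT cells (SD, n = 3), and fell by 2.37 (SE 0.15, adjusted p = 4.62e-08) in the latter comparison. Myc rose by 2.06 (SE 0.25, adjusted p = 7.51e-06) and fell by 2.46 (SE 0.26, adjusted p = 3.41e-06). Pim2 rose by 3.02 (SE 0.11, adjusted p = 3.32e-11) and fell by 1.24 (SE 0.10, adjusted p = 3.5e-07). Lcn2, which encodes the iron-binding protein lipocalin-2, passed the filter only through libraries with CYT and was at least 594-fold higher with CYT. It was 3.25 lower on the log2 scale in IL-1βlow + CYT than in CYT cells (SE 0.19, adjusted p = 2.1e-08). Fos fell by 2.90 with CYT (SE 0.51, adjusted p = 0.000189), though it had only 15 to 30 counts in untreated and 1 to 6 in CYT libraries.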
